A study of Mus musculus with 6 samples.

Results

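Solute carriers are membrane proteins that move nutrients, ions, vitamins and metabolites into and out of cells and organelles, and they are numbered by family and member (Slc, family, a, member). The set described here holds 119 genes, out of 54532 in the deposited table and 9867 with a mean of at least 1 FPKM (fragments scaled to gene length and to the depth of the library) over the 6 libraries. Members are protein-coding genes whose symbol starts with Slc, a family number, the letter a and a member number, with a mean of at least 1 FPKM. Of 342 protein-coding genes with such a symbol, 207 were below that level and 71 of these were listed at 0 in all libraries. Another 16 were left out by name (carriers of glucose, lactate, cationic amino acids, cystine, iron, zinc and related metals). Genes of the other letters of a family, such as Slc35b and Slc35c, are not members. The level that chose the members was the mean over both groups, so levels are given as a description. This rule did not use the comparison between the groups. The members and their classes were, however, chosen with earlier results of these data known. The same level was the filter of the test, so all 119 entered it, of which Slc9a3r2 and Slc17a9 averaged under 1 FPKM in one of the groups. Just inside the threshold lay Slc9a3r2 (1.03 FPKM), Slc17a9 (1.05 FPKM) and Slc25a16 (1.09 FPKM), and just outside it Slc38a9 (0.890 FPKM), Slc8a1 (0.877 FPKM) and Slc15a2 (0.825 FPKM).

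The cells were primary macrophages of WT mice. One group, of 3 samples, received vehicle, and the other, also of 3, received rmMETRNL, named for the secreted protein METRNL (meteorin-like), for 6 h in vitro. Candida albicans, a yeast, was then added to both groups for 6 h, so every sample compared here held the fungus. The labels give neither age, sex nor tissue of origin, and they do not say whether each sample was its own animal or culture. The p-values therefore set differences against a spread among samples that could be technical. The columns of the table carry short names, and the 3 that hold the letter r were read as rmMETRNL: all directions below depend on it.

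Macrophages use solute carriers to take up amino acids, to empty their phagosomes, to supply and drain their mitochondria, and to move metals that microbes also need. Transporters at the plasma membrane set what enters the cell, those of lysosomes return the products of digestion to the cytosol, and the Slc25 carriers of the inner mitochondrial membrane exchange nucleotides, organic acids and cofactors with the cytosol. mRNA levels do not give transport rates.

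The libraries held 13235001 to 18145733 reads recovered from the FPKM values, and the members took 1.11% to 1.17% of them. Of 16 macrophage identity genes, 15 reached 1 FPKM, with Lyz2 at 5460 and 5567 FPKM (vehicle and rmMETRNL means) and Cd14 at 2647 and 2298. The extraction text names retinas, and of 16 retina markers 0 reached 1 FPKM and 6 were listed at 0 in all libraries, their sum being 0.570 to 0.877 FPKM with vehicle and 0.900 to 1.08 FPKM with rmMETRNL. The summed level of 10 neutrophil markers was 113 to 119.8 FPKM with vehicle and 123 to 132 FPKM with rmMETRNL, led by S100a8 (83.7 ± 4.59 and 86.1 ± 0.564 FPKM, mean ± SD, n = 3, as for all such values below) and S100a9 (24.4 ± 0.781 and 34.8 ± 3.56 FPKM), while 7 of the 10 were under 1 FPKM and 1 of these at 0. The 10 T and NK cell markers summed to 2.84 to 3.59 and 3.84 to 5.10 FPKM. The sums of B cell, fibroblast and mesothelium, dendritic cell, mast cell and erythroid markers overlapped between the groups. In rmMETRNL library 3, longer genes stood higher than in the others: the correlation across genes of its deviation with log gene length was 0.203, against -0.140 to 0.0534 in the other 5. With the length trend removed, 11 solute carrier members stood higher and 6 lower with rmMETRNL at an unadjusted limma p under 0.05. Without that correction the counts were 10 and 7. The part of these marker levels in the differences below was not tested. In bulk RNA, fewer cells of a type and less RNA per cell cannot be told apart.

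Levels spanned from 1.03 to 469 FPKM with a median of 6.15, and 4 members exceeded 100 FPKM. These were Slc3a2, the heavy chain shared by several amino acid exchangers, Slc15a3, a lysosomal histidine and peptide transporter, Slc25a5, an ADP/ATP carrier, and Slc9a3r1, an adaptor protein. The 10 most abundant members held 58.4% of the summed level of all members. By contrast, 54 members were under 5 FPKM. Every member had at least 26 reads in each library.

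**Figure D1:**
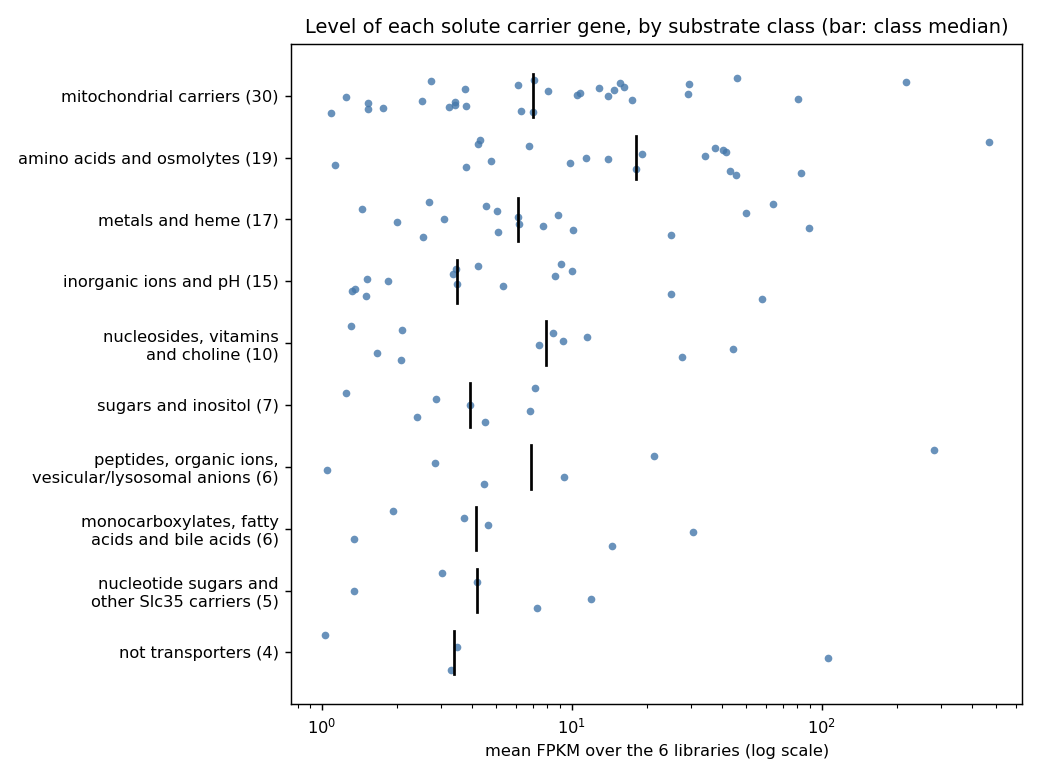
Mean FPKM over the 6 libraries of each of the 119 members on a log scale, 1 point per gene, grouped by substrate class with the number of genes in brackets and a bar at the class median. Amino acid and osmolyte transporters have the highest median (18.1 FPKM) and the points at the far right are Slc3a2, Slc15a3, Slc25a5 and Slc9a3r1.

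The comparison asked which solute carriers differ by pretreatment, rmMETRNL or vehicle, once Candida has been added. In sum the members overlapped between the groups: their summed FPKM was 2533 to 2634 in the vehicle libraries and 2540 to 2565 in the rmMETRNL libraries. Limma on log2(FPKM + 1) called 0 of 119 members at 0.05 after adjustment over the whole tested table, where it called 0.0% of all genes (lowest adjusted p of a member 0.189). Limma voom on the recovered reads also called 0 members, with a lowest adjusted p of 0.0567, and 0.618% of all genes. At an unadjusted p under 0.05 stood 17 members, 10 higher and 7 lower with rmMETRNL, or 14.3%, beside 14.7% of all genes tested (7.54% higher and 7.13% lower). In 27 members (22.7%) the groups did not overlap at all, with the 3 rmMETRNL values above the 3 vehicle values in 15 and below them in 12, beside 21.5% of all genes (10.9% and 10.6%). Both shares are close to those of all genes, and nothing is read from the members' counts beyond that. Their median log2 fold change was 0.01 against -0.01 over all genes, and single members ran from -0.29 to 0.43. For 115 of the 119 the 95% interval of the difference lay within 0.5 on the log2 scale in either direction, the 4 others being Slc12a9, Slc25a14, Slc25a18 and Slc10a3. Members are named by class, 3 by the smallest p and 2 by level in each, with all whose groups did not overlap at an unadjusted p under 0.05, and further family members and partners named below were added with their values seen.

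**Figure D2:**
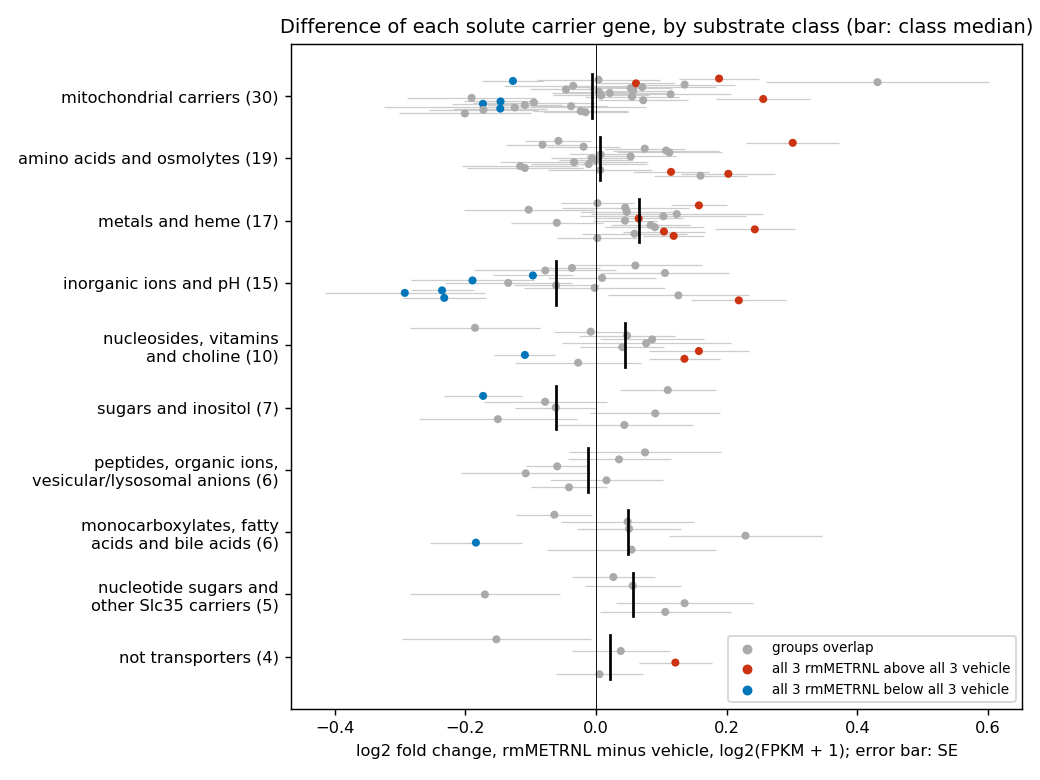
Log2 fold change (rmMETRNL minus vehicle, on the log2(FPKM + 1) scale) with its SE for each member by substrate class, 1 point per gene, coloured by whether the groups overlap, with a bar at the class median. In the class of metals and heme 15 of 17 points lie right of 0, in that of inorganic ions and pH 5 of 15.

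**Figure D3:**
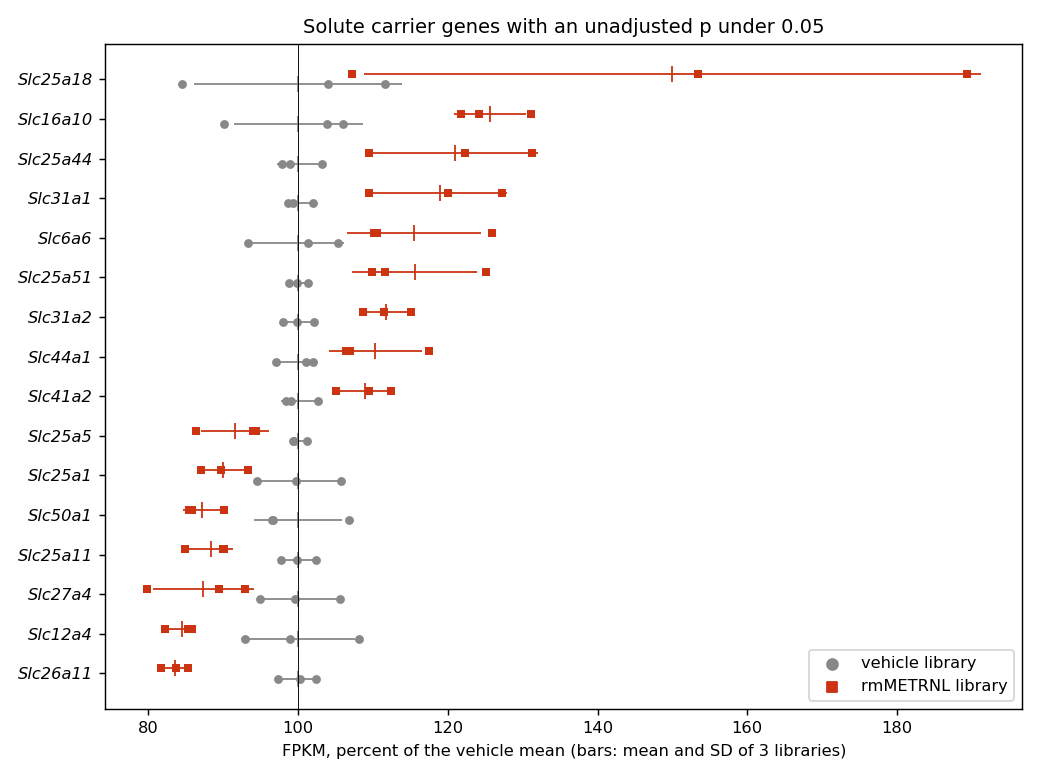
FPKM in each library as a percent of the vehicle mean for 16 of the 17 members with an unadjusted p under 0.05, circles for vehicle and squares for rmMETRNL, with the mean and SD of 3 libraries as bars. In 15 of the 16 drawn the groups do not overlap, the exception being Slc25a18 at the top.

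Transporters of metals and heme stood on the higher side in most cases. Of 17 members, 15 had a positive log2 fold change with a median of 0.07, where 48.4% of all genes tested were positive with a median of -0.01. In 5 members all 3 rmMETRNL values exceeded all 3 vehicle values, and in 0 all were below them. That is 29.4% of the class without overlap, beside 21.5% of all genes. The positive members numbered 12 without rmMETRNL library 3 and 13 in voom, and the median was positive in each of these fits (0.05 and 0.08). Under every scaling tried (TPM, median-of-ratios and quantile normalization), 15 were positive. None passed at an adjusted p of 0.05. The 16 carriers left out by name include iron and several zinc genes, so this class holds copper, magnesium, heme and the remaining zinc transporters.

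Both copper genes had higher values in every rmMETRNL library than in any vehicle library. Slc31a1 encodes CTR1, the copper importer of the plasma membrane, and its neighbour Slc31a2 encodes CTR2, a related protein of endosomes and lysosomes. Slc31a1 (ENSMUSG00000066150, chromosome 4, 62360727 to 62391769, GRCm38) had 44.995, 46.5 and 45.3 FPKM in the vehicle libraries and 49.9, 54.7 and 58.02 FPKM in the rmMETRNL libraries. Library 3 was the highest of the rmMETRNL group, and the means differed by 18.9% (log2 fold change 0.24, SE 0.06, limma adjusted p = 0.233). Slc31a2 (ENSMUSG00000066152, chromosome 4, 62262562 to 62298411) had 60.3, 61.6 and 59.1 FPKM in the vehicle libraries and 65.5, 69.5 and 67.3 FPKM in the rmMETRNL libraries, again without overlap (log2 fold change 0.16, SE 0.04, limma adjusted p = 0.238). The 2 genes lie on the same strand with 62315 bases between them. Without rmMETRNL library 3 their log2 fold changes were 0.19 and 0.16. Of the 16 carriers left out by name, 8 were higher and 1 lower at an unadjusted p under 0.05 (56.2%, beside 14.7% of all genes), and 4 of these 9 carry metals. Slc11a2, an iron importer gene, stood higher (29.2 ± 0.130 FPKM after vehicle and 34.9 ± 0.172 FPKM after rmMETRNL) and Slc11a1, the phagosomal metal transporter gene, lower (236 ± 7.47 FPKM after vehicle and 212 ± 6.22 FPKM after rmMETRNL). The zinc exporter gene Slc30a1 (2.44 ± 0.342 and 3.10 ± 0.225 FPKM) and Slc39a14, an importer of zinc and iron (15.6 ± 0.234 and 17.6 ± 0.199 FPKM), stood higher.

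The upstream sequences of Slc31a1 and Slc31a2 are shown because the genes are neighbours and both had higher values in all rmMETRNL libraries. They are the 250 bases before the RefSeq start site (GRCm38.p6, plus strand), Slc31a1 at chr4:62360451-62360700 and Slc31a2 at chr4:62286179-62286428. Capitals mark matches on either strand to the core of the metal response element (TGCNCNC), bound by the zinc-sensing factor MTF1, or of the antioxidant response element (TGACNNNGC), bound by NRF2.
Slc31a1: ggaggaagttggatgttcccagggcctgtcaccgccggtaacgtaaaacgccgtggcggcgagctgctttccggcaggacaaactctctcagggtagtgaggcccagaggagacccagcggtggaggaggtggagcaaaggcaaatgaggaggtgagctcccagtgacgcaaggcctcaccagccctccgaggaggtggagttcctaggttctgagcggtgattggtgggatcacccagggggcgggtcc
Slc31a2: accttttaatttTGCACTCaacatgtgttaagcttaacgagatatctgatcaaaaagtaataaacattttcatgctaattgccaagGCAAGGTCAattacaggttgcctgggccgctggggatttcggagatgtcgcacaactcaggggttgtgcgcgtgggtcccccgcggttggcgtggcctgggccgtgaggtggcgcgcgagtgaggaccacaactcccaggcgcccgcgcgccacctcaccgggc
The RefSeq start of Slc31a2 lies 23867 bases inside the gene as the table gives it, so this window is upstream of one of its transcripts only. Slc31a2 held 1 or more matches to each of the 2 cores, and Slc31a1 held neither. Short cores are frequent: TGCNCNC was found in 50.6% of the 89 members with a RefSeq promoter and in 52.04% of the 6816 tested protein-coding genes matched, and in 44.4% of all 32851 promoters. For TGACNNNGC the shares were 14.6%, 12.5% and 10.2%. The E-box CACGTG, which lies within the motif bound by the lysosomal regulator TFEB, was found in 14 members (15.7%), against 9.35% of tested protein-coding genes and 6.02% of all promoters. The AP-1 site TGANTCA, which can overlap TGACNNNGC, was in 5.62%, 4.39% and 6.75%. The core TGATGNAA of the amino acid response element was in 2.25% of members and 1.97% of tested protein-coding genes, and the cyclic AMP response element TGACGTCA in 2.25% and 2.90%.

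Slc41a2, a magnesium transporter gene, had 24.5, 23.5 and 23.7 FPKM in the vehicle libraries and 26.1, 25.1 and 26.8 FPKM in the rmMETRNL libraries. The groups did not overlap (log2 fold change 0.12, SE 0.05, limma adjusted p = 0.326). Slc48a1, which encodes the heme transporter HRG1 that returns heme from digested red cells to the cytosol, was the most abundant member of the class and did not separate the groups, with 88.8, 84.6 and 93.8 FPKM in the vehicle libraries and 85.2, 89.2 and 93.1 FPKM in the rmMETRNL libraries. Its 95% interval on the log2 scale was -0.13 to 0.14. Of 7 zinc importers of the Slc39 family, 6 had a positive log2 fold change, none above 0.12, and in 2 of them, Slc39a11 (5.89 ± 0.184 and 6.41 ± 0.415 FPKM with vehicle and rmMETRNL) and Slc39a13 (2.45 ± 0.126 and 2.61 ± 0.0614 FPKM), named for being the 2 without overlap, all rmMETRNL values were higher. The family's levels ran from 2.003 to 10.1 FPKM. Its lowest member, Slc39a7, shares 80.7% of its exon bases with the read-through gene model Gm20427 and is uncertain. The 4 zinc exporters of the Slc30 family, at 4.54 to 8.83 FPKM, overlapped between the groups.

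The 30 carriers of the Slc25 family, which sit mostly in the inner mitochondrial membrane, divided evenly, with 15 positive and 15 negative log2 fold changes and a median of -0.01 (0.01 after rescaling to TPM). In 4 the rmMETRNL values lay wholly below the vehicle values and in 3 wholly above (23.3% in all, beside 21.5% of all genes). The summed level of the class was lower in each rmMETRNL library, 601, 585 and 595 FPKM in the vehicle libraries and 572, 569 and 554 FPKM in the rmMETRNL libraries. This sum is weighted toward the most abundant carrier, Slc25a5 (mean 218 FPKM), itself lower in each rmMETRNL library. Whether the lower sum rests on Slc25a5 alone was not tested. Of the 30 signs, 12 were positive in voom and without rmMETRNL library 3, and 19 without vehicle library 1.

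Among the lower ones were carriers that exchange organic acids and adenine nucleotides. Other carriers of such substrates, Slc25a10 and Slc25a4, had positive log2 fold changes (0.06 and 0.07). Slc25a11 (ENSMUSG00000014606, chromosome 11, 70644196 to 70647479, GRCm38), the 2-oxoglutarate and malate carrier of the malate-aspartate shuttle, had 31.7, 30.9 and 30.2 FPKM in the vehicle libraries and 27.8, 26.2 and 27.9 FPKM in the rmMETRNL libraries. The lowest vehicle value was above the highest rmMETRNL value (log2 fold change -0.17, SE 0.05, limma adjusted p = 0.238). Slc25a1, the citrate carrier that feeds fatty acid synthesis in the cytosol, had 29.2, 32.7 and 30.8 FPKM after vehicle and 27.7, 26.9 and 28.9 FPKM after rmMETRNL (log2 fold change -0.15, SE 0.06, limma adjusted p = 0.320). Slc25a5, the ADP/ATP carrier ANT2, had 227, 226 and 230.5 FPKM after vehicle and 214, 215 and 197 FPKM after rmMETRNL, lowest in library 3 (log2 fold change -0.13, SE 0.05, limma adjusted p = 0.314). Of the 31-base words of Slc25a5, 67.1% occur in other genes, so its reads may be split with near copies. The phosphate carrier gene Slc25a3 had 88.1, 78.7 and 83.2 FPKM in the vehicle libraries and 80.1, 77.1 and 74.3 FPKM in the rmMETRNL libraries, which overlap (log2 fold change -0.11, SE 0.06, limma adjusted p = 0.423). Slc25a12, one of a pair of aspartate and glutamate carriers and the remaining member whose rmMETRNL values lay wholly below, had 2.71 ± 0.131 and 2.35 ± 0.147 FPKM, and its partner Slc25a13 3.26 ± 0.251 and 3.19 ± 0.157 FPKM.

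Other mitochondrial carriers were higher. Slc25a44 (ENSMUSG00000050144, chromosome 3, 88410498 to 88425139), a carrier of branched-chain amino acids, had 15.1, 14.5 and 14.4 FPKM in the vehicle libraries and 16.1, 17.9 and 19.3 FPKM in the rmMETRNL libraries, with no overlap and library 3 the highest (log2 fold change 0.26, SE 0.07, limma adjusted p = 0.243). Slc25a51, which brings NAD+ into mitochondria, had 9.88, 9.63 and 9.74 FPKM in the vehicle libraries and 10.9, 10.7 and 12.2 FPKM in the rmMETRNL libraries (log2 fold change 0.19, SE 0.06, limma adjusted p = 0.276). Slc25a10, the dicarboxylate carrier gene, also separated the groups but by little (3.67 ± 0.121 and 3.87 ± 0.0836 FPKM). Slc25a18, a glutamate carrier gene singled out here for the largest log2 fold change of all members, had 2.31, 3.05 and 2.84 FPKM in the vehicle libraries and 5.18, 2.93 and 4.20 FPKM in the rmMETRNL libraries at 67 to 154 reads per library. Its groups overlap, since rmMETRNL library 2 lay within the vehicle range (log2 fold change 0.43, SE 0.17, limma adjusted p = 0.326, 95% interval 0.02 to 0.84). Without rmMETRNL library 1 its log2 fold change was 0.28.

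The iron carriers of mitochondria did not separate the groups: mitoferrin-1 (Slc25a37) had 46.4 ± 2.49 FPKM after vehicle and 45.2 ± 1.71 FPKM after rmMETRNL, and mitoferrin-2 (Slc25a28) 6.55 ± 0.955 and 6.03 ± 0.149 FPKM. Slc25a39, the carrier of glutathione, had 18.6 ± 1.19 and 16.4 ± 1.68 FPKM with values that overlap. ANT1 (Slc25a4), the second ADP/ATP carrier, had 13.6 ± 0.705 and 14.4 ± 1.03 FPKM, with overlap. Whether Slc25a5 and Slc25a4 differ in their change was not tested. The remaining members of the family, from Slc25a25 at 15.6 FPKM down to Slc25a16, all overlapped. Ucp2, a proton carrier of the same family under another symbol, had 33.8 ± 2.25 FPKM after vehicle and 29.5 ± 1.29 FPKM after rmMETRNL, with all rmMETRNL libraries lower (log2 fold change -0.19, SE 0.06, limma adjusted p = 0.276).

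Amino acid and osmolyte transporters were the class with the highest levels and showed few differences, with 10 of 19 positive and a median of 0.01. In 3 members all rmMETRNL values were above all vehicle values and in 0 below (15.8%, beside 21.5% of all genes). The summed level was 916, 892 and 864 FPKM in the vehicle libraries and 906, 889 and 874 FPKM in the rmMETRNL libraries, which overlap.

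Slc16a10 encodes TAT1, which lets aromatic amino acids and thyroid hormone cross the plasma membrane. It (ENSMUSG00000019838, chromosome 10, 40033532 to 40142258, GRCm38) had 7.88, 9.27 and 9.07 FPKM in the vehicle libraries and 10.6, 11.5 and 10.8 FPKM in the rmMETRNL libraries. The means differed by 25.6% and the lowest rmMETRNL library was above the highest vehicle library (log2 fold change 0.30, SE 0.07, limma adjusted p = 0.219), and leaving out any 1 library gave log2 fold changes of 0.24 to 0.34. Slc6a6, the taurine transporter gene, had 42.7, 44.3 and 39.3 FPKM in the vehicle libraries and 46.5, 46.4 and 52.97 FPKM in the rmMETRNL libraries (log2 fold change 0.20, SE 0.07, limma adjusted p = 0.300). Library 3 held the highest value, and without it the log2 fold change was 0.14. Slc38a2, a sodium-coupled carrier of small neutral amino acids that cells induce when amino acids run short, had 41.4, 35.4 and 36.98 FPKM in the vehicle libraries and 41.7, 40.6 and 44.9 FPKM in the rmMETRNL libraries, with vehicle library 1 inside the rmMETRNL range (log2 fold change 0.16, SE 0.07, limma adjusted p = 0.362). Its neighbour Slc38a1 had 11.04 ± 0.189 and 11.7 ± 0.852 FPKM.

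The most abundant member, Slc3a2, encodes the CD98 heavy chain, which carries the Slc7 light chains to the membrane as disulfide-linked pairs. It had 484, 481 and 468 FPKM in the vehicle libraries and 476, 472 and 431 FPKM in the rmMETRNL libraries, level in 5 libraries and lower in rmMETRNL library 3 (log2 fold change -0.06, SE 0.05, limma adjusted p = 0.638). Of its light chains, Slc7a5 (LAT1) and Slc7a8 (LAT2), exchangers of large neutral amino acids, had 33.6 ± 2.95 and 34.8 ± 0.999 FPKM, and 36.1 ± 1.82 and 39.02 ± 4.15 FPKM. Slc7a6 and Slc7a7, which exchange cationic for neutral amino acids, were low, at 4.75 ± 0.387 and 4.72 ± 0.534 FPKM, and 4.45 ± 0.616 and 4.01 ± 0.0755 FPKM. Slc7a11, the cystine and glutamate exchanger left out of the set by name, was the most abundant light chain, at 133 ± 3.22 and 145 ± 13.5 FPKM. Heavy chain FPKM divided by the summed FPKM of these 5 light chains was 2.25, 2.26 and 2.26 with vehicle and 2.19, 2.15 and 1.74 with rmMETRNL. The ratio was nearly constant in the vehicle libraries and lower in the rmMETRNL libraries, with library 3 far below the others. That ratio was chosen after the values were seen and is given without a test.

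**Figure D4:**
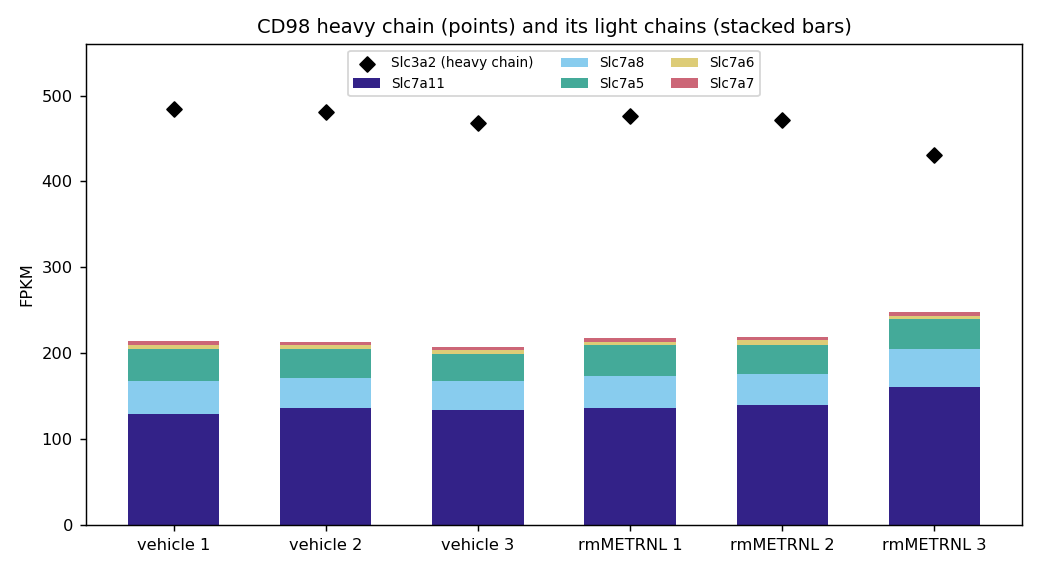
FPKM of Slc3a2 (diamonds) and of the 5 light chains that pair with it (stacked bars) in each library. The heavy chain exceeds the summed light chains in every library, and rmMETRNL library 3 has both the lowest heavy chain level (431 FPKM) and the highest light chain sum (248 FPKM).

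Other abundant members did not separate the groups. The creatine transporter gene Slc6a8 had 86.05, 81.4 and 79.4 FPKM in the vehicle libraries and 84.2, 82.8 and 81.02 FPKM in the rmMETRNL libraries (95% interval -0.10 to 0.12 on the log2 scale). Slc6a12, a betaine and GABA transporter, had 43.2 ± 2.35 and 42.6 ± 1.59 FPKM, and Slc1a5, the glutamine transporter ASCT2, 41.7 ± 2.84 and 41.4 ± 1.66 FPKM. Lysosomal members were Slc38a7, which exports glutamine and asparagine, at 19.04 ± 0.174 and 19.1 ± 1.22 FPKM, and Slc36a1, a proton-coupled exporter, at 7.05 ± 0.698 and 6.46 ± 0.587 FPKM. Both overlapped. Slc38a6 separated the groups by little (4.09 ± 0.157 and 4.51 ± 0.150 FPKM), and 77.98% of its 31-base words were also found elsewhere.

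Transporters of inorganic ions and pH leaned to the lower side, with 10 of 15 negative and a median of -0.06. In 5 members all rmMETRNL values were below all vehicle values and in 1 above, which is 40% of the class beside 21.5% of all genes. The median was negative in every fit run, at -0.10 to -0.03. The summed level was 146, 139.6 and 139 FPKM in the vehicle libraries and 132, 132 and 138 FPKM in the rmMETRNL libraries.

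Slc26a11 (ENSMUSG00000039908, chromosome 11, 119355557 to 119381079, GRCm38), an anion transporter able to carry sulfate and chloride, had the smallest p of all members. It had 10.6, 11.1 and 10.9 FPKM in the vehicle libraries and 9.28, 8.90 and 9.11 FPKM in the rmMETRNL libraries, a difference of means of -16.5% with little spread in either group (log2 fold change -0.24, SE 0.05, limma adjusted p = 0.189). Leaving out any 1 library gave log2 fold changes of -0.25 to -0.22. Slc12a4 (ENSMUSG00000017765, chromosome 8, 105943590 to 105966097), which encodes KCC1, a cotransporter that lets potassium and chloride out of swollen cells, had 29.2, 26.7 and 25.1 FPKM in the vehicle libraries and 23.1, 23.01 and 22.2 FPKM in the rmMETRNL libraries. All rmMETRNL values were lower and close together (log2 fold change -0.23, SE 0.06, limma adjusted p = 0.238). Slc12a9, a relative that is lower in level, had 2.29, 2.01 and 2.06 FPKM in the vehicle libraries and 1.67, 1.87 and 1.16 FPKM in the rmMETRNL libraries, without overlap (log2 fold change -0.29, SE 0.12, limma adjusted p = 0.341), and its log2 fold change was -0.17 without rmMETRNL library 3. Slc12a7 (KCC4) overlapped at 1.33 ± 0.174 and 1.32 ± 0.186 FPKM.

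Slc26a6, an anion exchanger, was also without overlap, at 1.66 ± 0.0832 and 1.34 ± 0.178 FPKM. Slc20a1, the sodium-phosphate cotransporter PiT-1 and the most abundant ion transporter, had 58.97, 57.2 and 59.5 FPKM in the vehicle libraries and 55.5, 56.8 and 58.9 FPKM in the rmMETRNL libraries, and its 95% interval was -0.14 to 0.07. It shares 13.1% of its exon bases with a gene on the other strand, and where counting did not use strand, reads from these bases cannot be told apart. The anion exchanger gene Slc4a2 (AE2) had 9.55 ± 0.770 and 8.63 ± 1.05 FPKM and the bicarbonate cotransporter gene Slc4a7 3.34 ± 0.173 and 3.38 ± 0.377 FPKM, both with overlap.

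Among 10 transporters of nucleosides, vitamins and choline, 6 had a positive log2 fold change (median 0.04). Slc44a1, a choline transporter of the plasma membrane and mitochondria, had 25.4, 26.5 and 26.7 FPKM in the vehicle libraries and 27.9, 28.002 and 30.8 FPKM in the rmMETRNL libraries, without overlap (log2 fold change 0.14, SE 0.05, limma adjusted p = 0.328). Slc19a2, the thiamine transporter THTR1, was low but separated, at 1.55, 1.54 and 1.47 FPKM in the vehicle libraries and 1.78, 1.78 and 1.88 FPKM in the rmMETRNL libraries on 79 to 107 reads (log2 fold change 0.16, SE 0.08, limma adjusted p = 0.394). On the other side was Slc29a1, the equilibrative nucleoside transporter ENT1, which takes up adenosine. It had 8.83, 8.68 and 8.86 FPKM in the vehicle libraries and 8.01, 8.24 and 7.99 FPKM in the rmMETRNL libraries, apart with small spread (log2 fold change -0.11, SE 0.05, limma adjusted p = 0.349). Slc29a3 (ENT3), its lysosomal relative, overlapped at 11.3 ± 0.737 and 11.7 ± 0.856 FPKM. Slc23a2, the ascorbate transporter SVCT2, was the most abundant member of the class with 44.997, 41.5 and 41.5 FPKM in the vehicle libraries and 42.4, 43.1 and 50.9 FPKM in the rmMETRNL libraries. Only library 3 of the rmMETRNL group was above the vehicle range, and without it the log2 fold change was 0.00. The concentrative nucleoside transporter Slc28a2 (7.28 ± 0.522 and 7.51 ± 0.265 FPKM, 51.2% of its 31-base words shared), the riboflavin transporter Slc52a2 (2.27 ± 0.132 and 1.88 ± 0.304 FPKM) and the folate carrier Slc19a1 (1.33 ± 0.145 and 1.29 ± 0.114 FPKM) overlapped.

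Sugar and inositol transporters outside the glucose carriers left out by name were low, at 1.25 to 7.15 FPKM, with 4 of 7 negative. Slc50a1 (SWEET1), a sugar transporter of the Golgi, had 7.38, 8.17 and 7.38 FPKM in the vehicle libraries and 6.89, 6.56 and 6.53 FPKM in the rmMETRNL libraries and was the 1 member of the class without overlap (log2 fold change -0.17, SE 0.06, limma adjusted p = 0.288). Slc37a2, a sugar phosphate exchanger known from macrophages, had 7.01 ± 0.410 and 6.67 ± 0.290 FPKM, and Slc37a4, the glucose 6-phosphate transporter of the endoplasmic reticulum, 3.72 ± 0.229 and 4.09 ± 0.308 FPKM. Slc2a8 (GLUT8), an intracellular hexose transporter, had 2.59 ± 0.468 and 2.22 ± 0.274 FPKM. These overlapped between the groups.

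Of the 6 transporters of monocarboxylates, fatty acids and bile acids, 4 were positive. Slc27a4 (FATP4), which activates and retains long-chain fatty acids, had 16.4, 15.5 and 14.7 FPKM in the vehicle libraries and 14.4, 13.9 and 12.4 FPKM in the rmMETRNL libraries, all rmMETRNL values lower (log2 fold change -0.18, SE 0.07, limma adjusted p = 0.319). Its relative Slc27a1 (FATP1), more abundant, overlapped at 32.9, 31.7 and 29.6 FPKM in the vehicle libraries and 31.5, 28.9 and 29.6 FPKM in the rmMETRNL libraries (log2 fold change -0.06, SE 0.06, limma adjusted p = 0.653). Slc10a3 had 4.08, 4.14 and 4.21 FPKM in the vehicle libraries and 4.07, 5.13 and 6.03 FPKM in the rmMETRNL libraries: rmMETRNL library 1 was level with vehicle and the other 2 above it (log2 fold change 0.23, SE 0.12, limma adjusted p = 0.423), and it shares 12.8% of its exon bases with its neighbour Ubl4a.

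Peptide, organic ion and vesicular or lysosomal anion transporters overlapped between the groups in all 6 members. Slc15a3 (PHT2), which moves histidine and bacterial peptides out of lysosomes, was the second most abundant member of all, at 299, 276 and 286 FPKM in the vehicle libraries and 282, 279 and 265 FPKM in the rmMETRNL libraries (log2 fold change -0.06, SE 0.05, limma adjusted p = 0.607), with 28.1% of its exon bases shared with Tmem132a on the other strand. Its relative Slc15a4 (PHT1), needed for signalling by endosomal Toll-like receptors, had 9.18 ± 0.700 and 9.43 ± 0.762 FPKM. Slc22a4, the ergothioneine transporter, had 21.6 ± 1.36 and 20.96 ± 0.682 FPKM, and its neighbour Slc22a5, the carnitine transporter, 2.99 ± 0.372 and 2.70 ± 0.272 FPKM, with 38.6% of its 31-base words in other genes. Slc17a9, which loads ATP into vesicles, had 0.9997 ± 0.195 and 1.10 ± 0.143 FPKM.

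Nucleotide sugar transporters of the Golgi, of which 5 Slc35a genes are members, also overlapped throughout, with 4 positive. Slc35a1, the carrier of CMP-sialic acid, had 3.27 ± 0.587 and 2.78 ± 0.290 FPKM, Slc35a2, the carrier of UDP-galactose, 7.16 ± 0.479 and 7.30 ± 0.262 FPKM, and Slc35a3, a carrier of UDP-N-acetylglucosamine, 3.99 ± 0.294 and 4.39 ± 0.617 FPKM. Slc35a5 (1.24 ± 0.203 and 1.46 ± 0.127 FPKM) and Slc35a4 (11.7 ± 1.09 and 12.2 ± 0.347 FPKM) complete the class. The highest log2 fold change was 0.14 (Slc35a5) and the lowest -0.17 (Slc35a1).

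A group of 4 members are not transporters although their symbols match. Slc9a3r1 encodes NHERF1, a scaffold that ties membrane transporters to ezrin, and had 108, 102 and 94.6 FPKM in the vehicle libraries and 108, 111 and 112 FPKM in the rmMETRNL libraries. All rmMETRNL libraries were higher, the lowest of them barely above the highest vehicle library (log2 fold change 0.12, SE 0.06, limma adjusted p = 0.375). Slc9a3r2 (1.14 ± 0.350 and 0.912 ± 0.139 FPKM), Slc4a1ap (3.22 ± 0.228 and 3.33 ± 0.240 FPKM) and Slc7a6os (3.46 ± 0.0442 and 3.48 ± 0.245 FPKM), which lies 2010 bases from Slc7a6, overlapped. Counting the 115 transporters alone left the numbers at an unadjusted p under 0.05 at 10 higher and 7 lower.

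**Figure D5:**
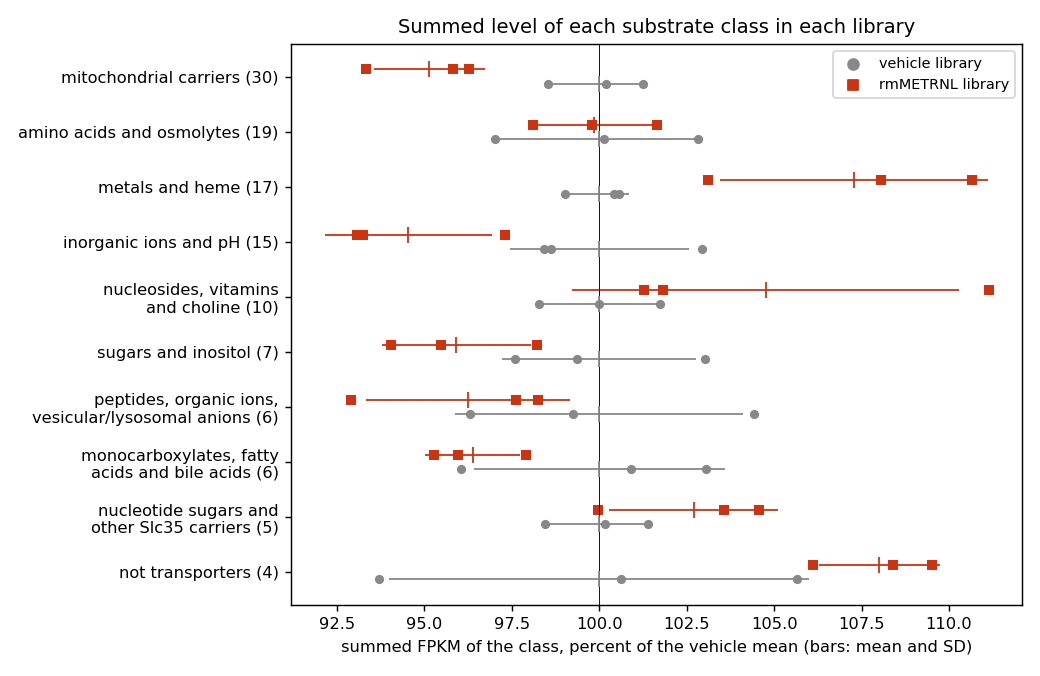
Summed FPKM of each substrate class in each library as a percent of the vehicle mean, circles for vehicle and squares for rmMETRNL, with the mean and SD of 3 libraries as bars. The sums of metals and heme and of the 4 genes that are not transporters lie above the vehicle range in all 3 rmMETRNL libraries. Those of mitochondrial carriers and of inorganic ions and pH lie below that range. Sums are weighted toward abundant genes. Slc9a3r1 (mean 106 FPKM) makes up most of the sum of non-transporters, and Slc25a5 (mean 218 FPKM) is the most abundant mitochondrial carrier. Slc31a1 and Slc31a2 are, after Slc48a1, the most abundant genes of metals and heme.

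Transport genes outside the set were counted in the same way. Of 43 listed transporters that belong to solute carrier families or resemble them but keep other symbols, 31 were tested, 4 were higher and 3 lower at an unadjusted p under 0.05 (22.6%, beside 14.7% of all genes), and the median log2 fold change was 0.00. With Ucp2, those with the smallest p were Mfsd10 (9.13 ± 0.858 FPKM after vehicle and 7.35 ± 0.190 FPKM after rmMETRNL) and Mfsd12, needed to bring cysteine into lysosomes (21.4 ± 1.34 and 23.9 ± 0.369 FPKM). Mfsd12 shares 29.8% of its exon bases with a gene on the other strand and is uncertain. Of 12 tested partners and regulators, 2 were higher and 2 lower (33.3%). Sgk1, a kinase that keeps several transporters at the plasma membrane, had 84.9, 80.99 and 87.9 FPKM in the vehicle libraries and 106, 109.99 and 115 FPKM in the rmMETRNL libraries (log2 fold change 0.38, SE 0.05, limma adjusted p = 0.151). Ostm1, the partner of the lysosomal chloride exchanger ClC-7, which is no solute carrier, had 12.7 ± 0.654 and 15.05 ± 0.652 FPKM, and Chp1, a cofactor of sodium-proton exchangers, 40.99 ± 1.06 and 36.9 ± 0.822 FPKM. Of 13 tested genes of the ATF4 and amino acid response, the program that induces many amino acid transporters, 1 was higher (Chac1, 19.6 ± 1.77 and 23.5 ± 1.28 FPKM) and 1 lower (15.4% in all, Pck2 at 5.82 ± 0.0686 and 5.09 ± 0.155 FPKM), and Trib3 had 24.2 ± 1.53 and 27.6 ± 2.87 FPKM with overlap. None of these genes passed at an adjusted p of 0.05.

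Precision differed with level. Of the 41 members at a mean level of 10 FPKM or more, 12 (29.3%) had an unadjusted p under 0.05, beside 22.7% of all genes at that level. Of the 78 below it, 5 (6.41%) did, beside 10.2% of all such genes. The members' median SEs were 0.06 and 0.09 on the log2 scale. A log2 fold change of 0.16 would thus be less than 2 such SEs for a member below 10 FPKM. The pseudocount of 1 shrinks fold changes of genes near 1 FPKM.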

How the data were processed

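Total RNA of 6 samples of primary macrophages was sequenced, and the authors deposited 1 table of FPKM values per gene with gene lengths. The submitters' processing notes name the genome builds GRCm38 and mm10. The sources used here do not give the aligner, counter, annotation release or strand setting. Multiplied by gene length, the FPKM values of a library fall on even steps, each worth 1 read (100% of values within 0.05 read), which gave the reads back as whole numbers. They give the depths, and with them the precision of low genes.

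The test was limma 3.58.1 in R 4.3.3 with a mean-variance trend on log2(FPKM + 1), fitted on 9867 genes (mean of 1 FPKM or more) and adjusted over all of them by the Benjamini-Hochberg method. A fold change on the log2(FPKM + 1) scale understates that of low genes. An interval is the 95% interval of limma's moderated statistic. "Without overlap" means that the 3 values of one group lie wholly beyond the 3 of the other.

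The members, their substrate classes and the gene lists were chosen with earlier results of these data known. Slc7a6os was moved to the members that are not transporters after its row was seen. In each class the text names the 3 members with the smallest p, the 2 with the highest mean, and every member with an unadjusted p under 0.05 and no overlap, and it names up to 3 genes of each other transport list by the smallest p. Other names were added with their values seen, and 3 members that enter all counts are not reported here by name.

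Shared sequence was measured as exon bases shared with another gene and as 31-base words found in another gene's transcripts, with GENCODE M21 (GRCm38), whose start and end matched the table's for 113 members. Upstream sequences are from RefSeq (GRCm38.p6) and were matched by symbol for 89 members. Alternatives were another pseudocount (0.1), other filters, quantile normalization, TPM, scaling by the median of ratios, voom on recovered reads, protein-coding genes alone, a length correction, the replicate number as a block and each library left out. The fit was tested on simulated data.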

Additional observations from a re-analysis of the deposited data

How the results depend on the processing

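None of the 119 members passed at an adjusted p of 0.05 in any of the 16 alternatives, and the lowest adjusted p of a member that the naming rule picks was 0.0567 (Slc16a10, limma voom on the recovered reads). Over all genes the count of 0 became 5 with no filter, 1 after rescaling to TPM, 61 with limma voom, 6 among protein-coding genes alone and 1 with the length trend removed, and it was 0 to 0 with each library left out. Members higher at an unadjusted p under 0.05 numbered 10, and 5 to 11 with each library left out (6 without vehicle library 2, 5 without vehicle library 3 and 5 without rmMETRNL library 3). Members lower numbered 7, and 4 to 8 with each library left out (4 without rmMETRNL library 3). With the 21 members that share over 10% of their sequence left out, an alternative chosen after seeing the data, the counts were 9 and 6.

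Of the 16 members picked by the naming rule with an unadjusted p under 0.05, 0 changed sign in any alternative, and 7 kept that p in every one: Slc12a4, Slc16a10, Slc25a11, Slc25a44, Slc26a11, Slc31a1 and Slc31a2. Of the 28 other members that the naming rule picks, 8 changed sign at least once, and members named beyond the rule were not tallied. The replicate number as a block gave 7 members higher and 5 lower, and 0 genes passed at an adjusted p of 0.05. Deviations of same-numbered libraries correlated at -0.021, 0.0074 and -0.045 across genes, and those of differently numbered ones at -0.069 to 0.084. With so few libraries, these values cannot show whether same-numbered samples shared an animal or culture. With 3 libraries a group, members of 10 FPKM or more had a median SE of 0.06 on the log2 scale and those below it 0.09. These SEs are not the smallest detectable differences, since differences of several SEs did not pass adjustment either. An example outside the set is Sgk1 (log2 fold change 0.38, SE 0.05, limma adjusted p = 0.151).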
